A study of Homo sapiens with 9 samples.

Results

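The sites described here are the listed m6A positions in 6 mitochondrial mRNAs for subunits of respiratory complex I: MT-ND1, MT-ND2, MT-ND3, MT-ND4L, MT-ND4 and MT-ND5. They were chosen by position alone, as sites on the plus strand of chromosome M (UCSC hg19) at 3308 to 4264 for MT-ND1, 4471 to 5513 for MT-ND2, 10060 to 10406 for MT-ND3, 10471 to 12139 for MT-ND4L and MT-ND4 together, and 12338 to 14149 for MT-ND5. The rule found 10 of 482 sites with the first SETD2 hairpin, 11 of 697 with the second and 10 of 3755 with the control shRNA. Counted once each, these are 20 of 4429 positions. The data are lists of N6-methyladenosine (m6A) sites in HepG2, an established human hepatocellular carcinoma cell line. The groups were HepG2 with the SETD2 shRNA shSETD2#1 (hairpin 1), HepG2 with shSETD2#2 (hairpin 2) and HepG2 with a non-specific control shRNA. All 3 carried a lentiviral shRNA and were kept under puromycin selection, and the labels describe no single-cell cloning. SETD2 trimethylates lysine 36 of histone H3, a mark of transcribed chromatin in the nucleus. Each group had 3 labelled replicates but 1 pooled list, so replicate error is unknown throughout, and the lists alone do not show how far SETD2 was reduced.

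Complex I takes electrons from NADH, passes them to ubiquinone and pumps protons across the inner mitochondrial membrane. Most of its subunits are encoded in the nucleus, while 7 hydrophobic subunits of its membrane arm are encoded in mitochondrial DNA, which carries no histones. The mitochondrial mRNAs are cut from long transcripts of both strands, and MT-ND6 is the only complex I mRNA from the other strand. No list held a site of chromosome M on the minus strand, so MT-ND6 contributed none. MT-ND4L and MT-ND4 share 1 bicistronic mRNA. RefSeq gives MT-ND4L a length of 297 nt, and every listed site of that span lay at least 720 nt from its start, so all are named as MT-ND4 sites here.

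In each list a site has a whole-number score set by the authors. The score is read here as the number of reads over the site. The running number in the site names orders all sites of a list exactly by a binomial probability at a background rate of 1.43% with hairpin 1, 1.00% with hairpin 2 and 1.57% in control, and from this order the count of C-to-T reads at each site can be worked out. These C-to-T reads and shares are reconstructed, and no column of the lists holds them. They have a single possible value at 9 of 10 complex I sites with hairpin 1, 11 of 11 with hairpin 2 and 8 of 10 in control, and bounds at the others. Over the lists, the scores had a median of 11 with hairpin 1, 15 with hairpin 2 and 14 in control, and a sum of 23420 with hairpin 1, 51597 with hairpin 2 and 256360 in control. Library totals were not used here, so score ratios between lists are not scaled for depth.

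The complex I genes had about as many sites in either knockdown list as in control, and 8 of the 20 positions were in more than 1 list. The rest of chromosome M was alike, with 14 sites with hairpin 1, 15 with hairpin 2 and 15 in control. Of all 4429 positions, 225 were shared by hairpin 1 and control, 244 by hairpin 2 and control and 119 by the hairpins. Of the 20 complex I positions, 3 were in all 3 lists, 3 in the hairpin 1 and control lists and 2 in the hairpin 2 and control lists. A further 4 were in the hairpin 1 list alone, 6 in that of hairpin 2 alone and 2 in no list but control. The 3 complex I positions shared by both hairpins were all control sites too. This is 3 of 10 hairpin 1 sites, where 24.7% of the whole hairpin 1 list was also listed with hairpin 2. Of the 10 control sites, 6 were listed again with hairpin 1 and 5 with hairpin 2. Over all control sites 5.99% were listed again with hairpin 1 and 6.50% with hairpin 2. Among control sites with 100 or more reads, the depth at which every complex I control site lay, these shares were 26.5% and 23.8%. The complex I control sites had 155 to 4950 reads with a median of 935, so this floor need not match their depth. Of the other 15 control sites on chromosome M, 7 were listed again with each hairpin. From the other side, 6 of the 10 hairpin 1 sites and 5 of the 11 hairpin 2 sites were also in the control list, where 46.7% and 35.0% of all sites were. No test was made of these counts, which compare pooled lists.

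**Figure D1:**
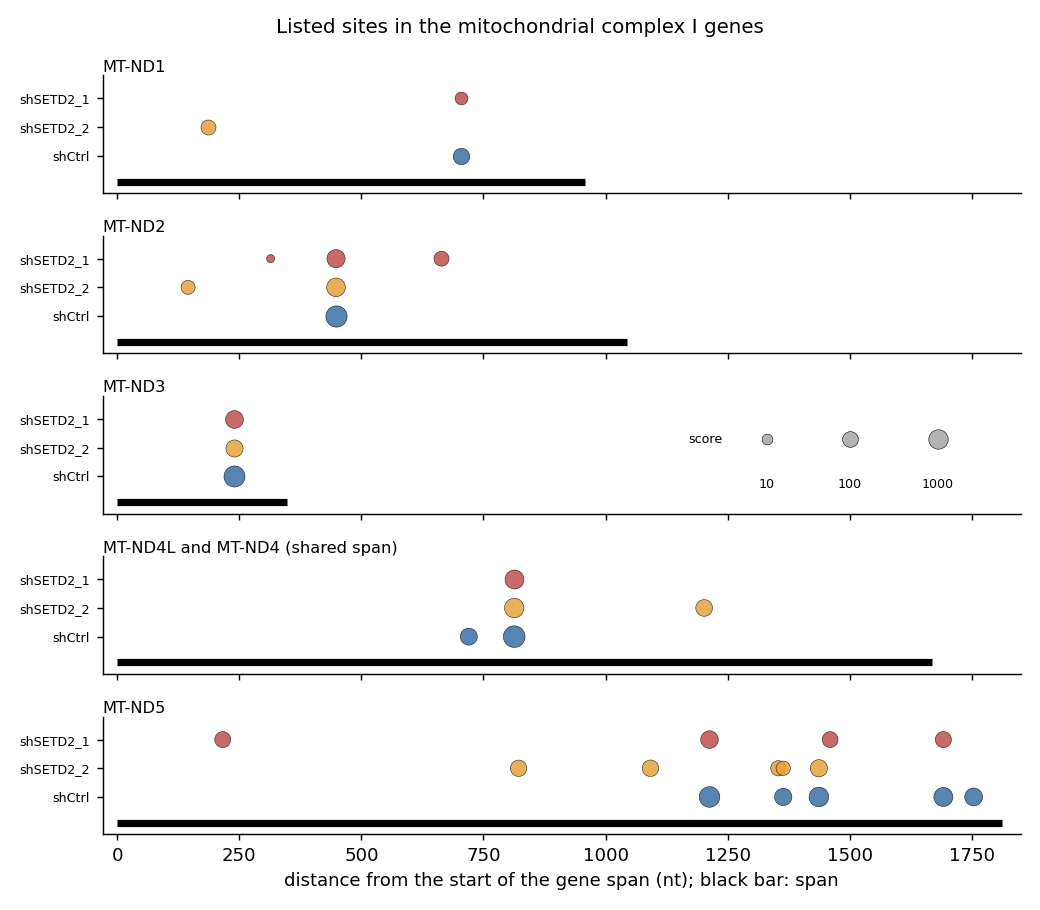
Listed sites along each complex I gene span, by distance from the start of the span in nucleotides, with a row for each list and point size growing with the log of the score. Positions in MT-ND2 (448 nt), MT-ND3 (240 nt) and MT-ND4 (813 nt) stand in all 3 rows, and MT-ND5 holds 10 of the 20 positions.

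MT-ND5, a large proton-pumping subunit of the membrane arm, held the most positions. It had 4 sites with hairpin 1, 5 with hairpin 2 and 5 in control, which is 2.21 sites per kilobase of its 1812 nt with hairpin 1 and 2.76 with hairpin 2 and in control. Within the span, most MT-ND5 sites lay towards its 3′ end. In the last 40% of its span were 3 of 4 with hairpin 1, 4 of 5 with hairpin 2 and 5 of 5 in control. Sites listed past the span end, given below, are not in these counts. MT-ND3, with the shortest span of 347 nt, had 1 site in each list (2.88 per kilobase), always the same base. MT-ND2 had 3, 2 and 1 sites with hairpin 1, hairpin 2 and in control. MT-ND4 had 1 with hairpin 1, 2 with hairpin 2 and 2 in control, and MT-ND1 had 1 in each list. Over all spans, 6 of 10 sites with hairpin 1, 6 of 11 with hairpin 2 and 7 of 10 in control lay past the middle of the span. Neighbouring sites can share reads: the MT-ND5 positions 13692 and 13702 are 10 nt apart.

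The MT-ND2 site at 4919 (plus strand, 448 nt into the span) was among the 3 found in all lists. MT-ND2 encodes another proton-pumping subunit. The score was 438 with hairpin 1, 597 with hairpin 2 and 3686 in control. C-to-T reads numbered 12 with hairpin 1, 18 with hairpin 2 and between 155 and 157 in control, so the share was 2.74% with hairpin 1 (95% exact interval 1.42 to 4.74), 3.02% with hairpin 2 (1.80 to 4.72) and 4.21% to 4.26% in control (3.58 to 4.96 over both bounds). Both knockdown shares were lower than the control share, and their intervals overlap it. Over every admissible control read number, the odds ratio was 0.633 to 0.642 with hairpin 1 (95% interval 0.318 to 1.17, unadjusted p = 0.159) and 0.699 to 0.708 with hairpin 2 (0.400 to 1.17, unadjusted p between 0.180 and 0.217), by Fisher's exact test, two-sided here and below. With the lower bound, the p adjusted over all shared sites was 0.822 and 0.944 (Fisher's exact test). These intervals cover counting error only, and without molecular identifiers several reads can come from 1 molecule.

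The MT-ND4 site at 11284 (plus strand, 813 nt into the span) was the deepest complex I site in every list. MT-ND4 encodes a further proton-pumping subunit. It had 698 reads with hairpin 1, 963 with hairpin 2 and 4950 in control. C-to-T reads numbered 20 with hairpin 1, 23 with hairpin 2 and 132 in control, and the shares were 2.87% with hairpin 1 (1.76 to 4.39), 2.39% with hairpin 2 (1.52 to 3.56) and 2.67% in control (2.24 to 3.15). The shares lay within 0.48 percentage points of each other and above the fitted rate of their list. The odds ratio against control was 1.08 with hairpin 1 (0.633 to 1.75) and 0.893 with hairpin 2 (0.544 to 1.41), with adjusted p = 1 for both by Fisher's exact test. The intervals leave room for a change of up to 1.75-fold upwards or to 0.544 of the control odds.

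The MT-ND3 site at 10300 (plus strand, 240 nt into the span) had many reads but few changed ones. MT-ND3 is a small subunit with a loop that faces the ubiquinone site. Its score was 327 with hairpin 1, 227 with hairpin 2 and 3091 in control, so hairpin 2 was the lower of the hairpins here and the higher at 4919 and 11284. The share was 1.83% with hairpin 1 (0.676 to 3.95), 1.32% with hairpin 2 (0.273 to 3.81) and 1.46% in control (1.06 to 1.94), and each interval holds the fitted rate of its list. Against control the odds ratio was 1.27 with hairpin 1 (0.438 to 3.01) and 0.907 with hairpin 2 (0.179 to 2.86), both with adjusted p = 1 by Fisher's exact test.

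**Figure D2:**
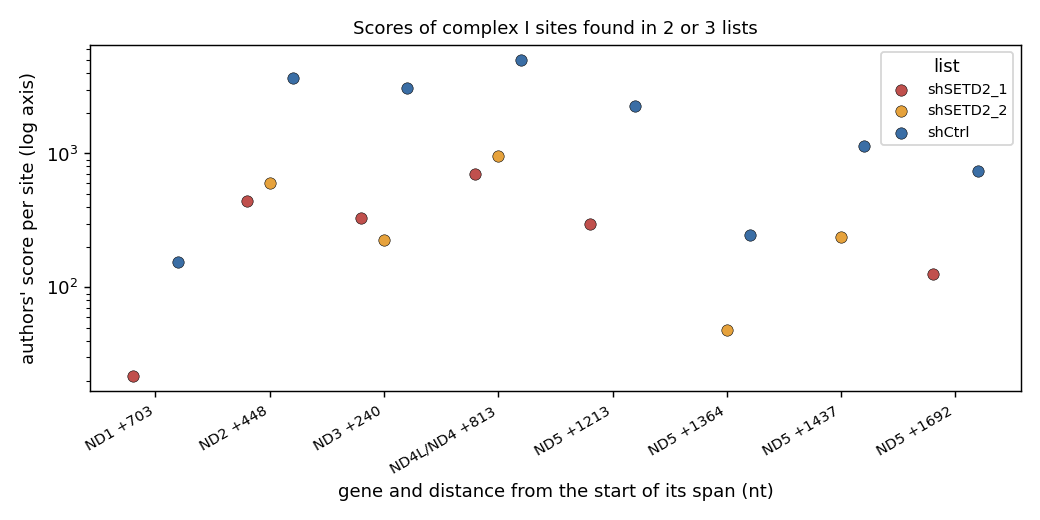
Unscaled score of each complex I position found in 2 or 3 lists, on a log axis, with a point for each list. The control point lies above the knockdown points at all 8 positions, from 155 reads at the MT-ND1 site to 4950 at the MT-ND4 site.

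Unscaled scores at complex I sites were lower with either hairpin than in control at every shared position, but the direction of their sum depends on the scaling. With hairpin 1 all 6 shared sites were at least 2-fold lower, where 84.0% of the 225 sites shared by these lists were. The fold differences lay close together, from 5.91-fold at the MT-ND5 site at 14030 to 9.45-fold at the MT-ND3 site, with a median log2 ratio of -2.88. Over all shared sites the median was -2.81. With hairpin 2 all 5 shared sites were at least 2-fold lower, against 73.0% of 244 sites. These differences ran from 4.73-fold at the MT-ND5 site at 13775 to 13.6-fold at the MT-ND3 site, with a median log2 ratio of -2.37 beside -2.30 over all shared sites. The medians of complex I sites thus stood near those of the whole lists. Between the hairpins, 0 of 3 shared sites were at least 2-fold lower with hairpin 1 than with hairpin 2, where 46.2% of 119 sites were. Divided by the median ratio of all shared sites, 0 of 6 complex I sites were 2-fold lower with hairpin 1, and 1 of 5 was with hairpin 2. The log2 ratio of the summed score turned from -2.97 unscaled to 0.64 with hairpin 1 when divided by the ratio of summed nuclear scores, and from -2.66 to 0.17 with hairpin 2 when divided by the median ratio of other shared chromosome M sites. Scores count reads in the antibody fraction, so less RNA, less m6A on it and fewer reads sequenced cannot be told apart.

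**Figure D3:**
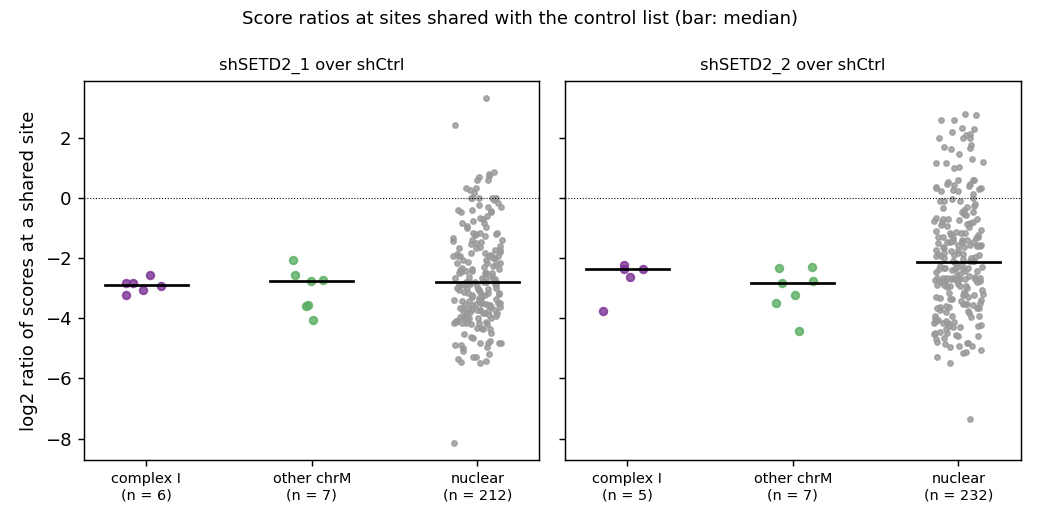
Log2 ratio of the unscaled score with a hairpin over the control score, at sites shared by both lists, for complex I, other chromosome M and nuclear sites, with the median as a bar. The complex I points lie between -3.24 and -2.56 with hairpin 1, and with hairpin 2 the MT-ND3 site at -3.77 stands below the other 4.

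The MT-ND3 site took a smaller part of the complex I reads with hairpin 2. Of the summed score of the 3 sites in all lists, it held 22.4% with hairpin 1 (20.2 to 24.6), 12.7% with hairpin 2 (11.2 to 14.3) and 26.4% in control (25.6 to 27.2). The MT-ND4 site held 47.7% with hairpin 1 (45.1 to 50.3), 53.9% with hairpin 2 (51.5 to 56.2) and 42.2% in control (41.3 to 43.1). The MT-ND2 site held 29.9% with hairpin 1 (27.6 to 32.4), 33.4% with hairpin 2 (31.2 to 35.6) and 31.4% in control (30.6 to 32.3), with overlapping intervals. For MT-ND3 and for MT-ND4 no interval of 1 list overlapped that of another. How often this holds among other deep sites was not counted, and intervals for counting error are narrow at such depth. Sequencing depth cancels in these shares of the summed score, but replicate spread is unknown and the intervals do not include it. Set against control directly and unscaled, the MT-ND3 score was 13.6-fold lower with hairpin 2 (11.9 to 15.7) and the MT-ND4 score 5.14-fold lower (4.80 to 5.51). With hairpin 1 the MT-ND3 score was 9.45-fold lower (8.43 to 10.6) and the MT-ND4 score 7.09-fold lower (6.55 to 7.69). Larger falls than at the MT-ND3 site were found at 17.6% of the 244 sites shared by hairpin 2 and control. With hairpin 1 this was 37.8% of 225. Falls larger than at the MT-ND4 site were found at 46.3% with hairpin 2 and 48.9% with hairpin 1.

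**Figure D4:**
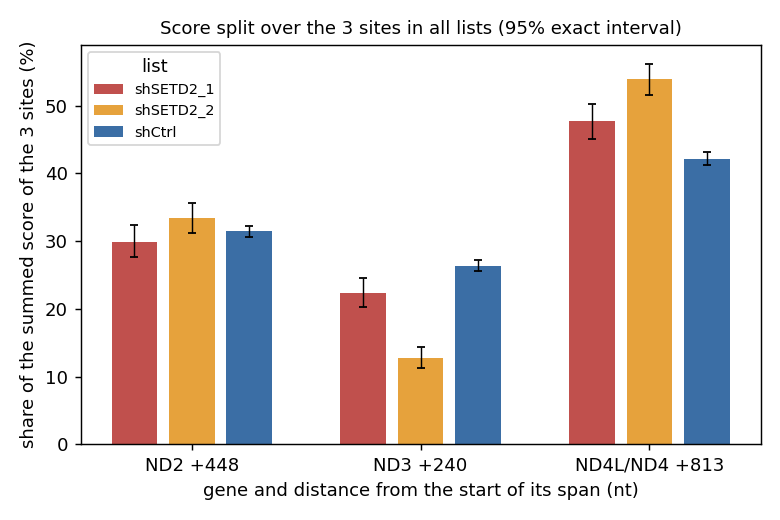
Percent of the summed score of the 3 complex I sites in all lists that each site held, by list, with 95% exact intervals for counting error. The MT-ND3 bar is 12.7% with hairpin 2, below 22.4% with hairpin 1 and 26.4% in control.

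The MT-ND5 site at 13551 (plus strand, 1213 nt into the span) had the highest C-to-T share among complex I sites of 100 or more reads. It was listed with hairpin 1 and in control and not with hairpin 2. Its score was 295 with hairpin 1 and 2269 in control, with 23 to 24 C-to-T reads with hairpin 1 and 141 to 150 in control. The share was thus 7.80% to 8.14% with hairpin 1 (5.01 to 11.9 over both bounds) and 6.21% to 6.61% in control (5.26 to 7.71 over both bounds). The intervals overlap, and the odds ratio over all admissible read numbers was 1.19 to 1.34 (unadjusted p between 0.207 and 0.458, Fisher's exact test). On either side of it, hairpin 2 had listed sites at 13430 with 158 reads and 1 C-to-T read, and at 13692 with 77 reads and 1 C-to-T read, at 121 nt and 141 nt from the missing position. The reads of hairpin 2 over 13551 itself are not in its list, and no share can be given for it.

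At 3 further MT-ND5 sites found with a hairpin and in control, no difference in share passed the test. The site at 13775 had 239 reads with hairpin 2 and 1131 in control, with shares of 2.09% with hairpin 2 and 1.41% in control (adjusted p = 1, Fisher's exact test). The site at 13702 had 1 C-to-T read among 48 with hairpin 2 and 5 among 248 in control (adjusted p = 1, Fisher's exact test). The site at 14030 had 125 reads with hairpin 1 and 739 in control, with shares of 2.40% with hairpin 1 and 1.35% in control (adjusted p = 0.973, Fisher's exact test). In control alone, the site at 14092, 57 nt from the end of the span, had 358 reads and 4 C-to-T reads. In MT-ND1, which encodes a subunit beside the ubiquinone channel, the site at 4011 had 1 C-to-T read among 22 with hairpin 1 and 2 among 155 in control (adjusted p = 0.890, Fisher's exact test). Its odds interval ran from 0.059 to 72.0. The other position in control alone was the MT-ND4 site at 11191, with 205 reads and 3 C-to-T reads.

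Positions listed with a single hairpin rested on few changed reads. The 4 with hairpin 1 were the MT-ND2 sites at 4785 and 5135 and the MT-ND5 sites at 12554 and 13798. Each had 1 C-to-T read, among 4, 66, 113 and 105 reads. The 6 with hairpin 2 had 1 to 7 C-to-T reads among 40 to 173 reads. Among them the MT-ND5 site at 13160 had 7 of 144 reads (4.86%, 1.98 to 9.76), and the MT-ND2 site at 4616 had 3 of 40 (7.50%, 1.57 to 20.4). The remaining hairpin 2 sites were at 3493 in MT-ND1 (2 of 66 reads), 11673 in MT-ND4 (3 of 173) and 13430 and 13692 in MT-ND5. In all, a single C-to-T read lay under 5 of 10 complex I sites with hairpin 1, 3 of 11 with hairpin 2 and 0 of 10 in control. Over the whole list this held for 62.4% of sites with hairpin 1, 58.7% with hairpin 2 and 40.9% in control, at a lower median score than that of the complex I sites. The control complex I sites were several times deeper than those of the hairpins.

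**Figure D5:**
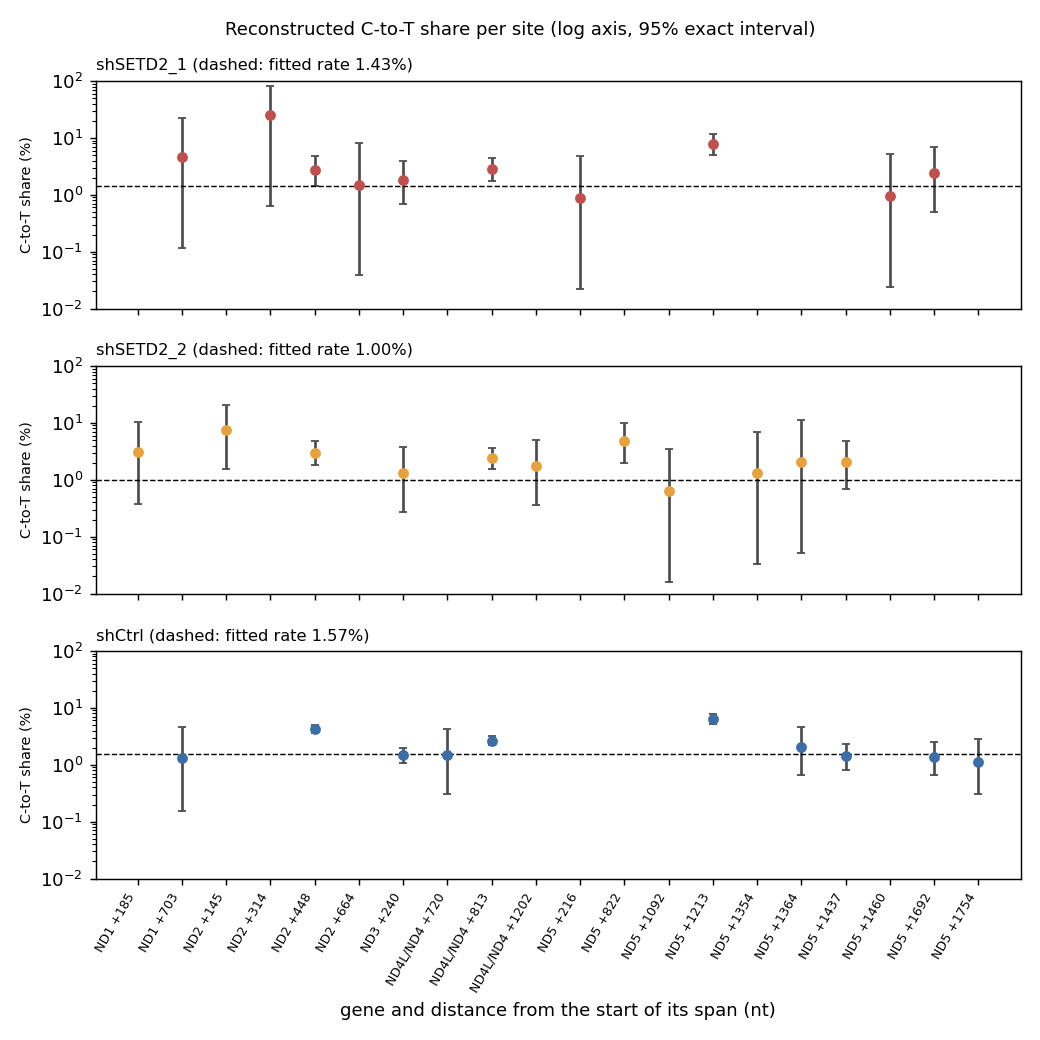
Reconstructed C-to-T share of every complex I site on a log axis with its 95% exact interval, 1 panel for each list, and the fitted background rate as a dashed line. In control, 3 sites have intervals wholly above the rate of 1.57%: MT-ND2 (448 nt), MT-ND4 (813 nt) and MT-ND5 (1213 nt). With hairpin 1, MT-ND4 (813 nt) and MT-ND5 (1213 nt) do so at 1.43%. With hairpin 2, MT-ND2 (145 nt and 448 nt), MT-ND4 (813 nt) and MT-ND5 (822 nt) do so at 1.00%. Such intervals were not counted over the whole lists.

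The number of complex I sites called above the fitted rate of the list depended on how sites with bounds were counted. Differences between lists in this number were not tested. Each list was set against its own rate, 1.43% with hairpin 1, 1.00% with hairpin 2 and 1.57% in control. Calls came from one-sided exact binomial tests for more C-to-T reads than the fitted rate gives, adjusted over each list. The same probability orders the site names and gave the read numbers, so the calls only describe the list. Among sites with a single-valued read number, 1 of 9 passed with hairpin 1, 4 of 11 with hairpin 2 and 1 of 8 in control. This leaves out MT-ND5 13551 with hairpin 1 and in control, and MT-ND2 4919 in control, which have bounds. Over the whole list 19.5% of sites passed with hairpin 1, 24.0% with hairpin 2 and 41.6% in control. Among sites of 100 or more reads, 1 of 6 complex I sites passed with hairpin 1 (7.27% of all such sites), 3 of 7 with hairpin 2 (8.18%) and 1 of 8 in control (21.1%). The MT-ND4 site at 11284 passed in every list, with an adjusted p of 0.0199 with hairpin 1, 0.00131 with hairpin 2 and 1.57e-07 in control (exact binomial test). With hairpin 2 the MT-ND2 sites at 4616 (adjusted p = 0.0326, exact binomial test) and 4919 (adjusted p = 0.000444) and the MT-ND5 site at 13160 (adjusted p = 0.00388) also passed. Restricted to sites of 10 or more reads, the calls of 11284 with hairpin 1 (adjusted p = 0.0547, exact binomial test) and of 4616 with hairpin 2 (adjusted p = 0.0637) were lost. With bounds taken at their lowest, a choice made after seeing the data, MT-ND5 13551 passed with hairpin 1 and in control, and MT-ND2 4919 passed in control, giving 2 of 10 with hairpin 1, 4 of 11 with hairpin 2 and 3 of 10 in control. Under that choice 21.6% of the whole list passed with hairpin 1, 26.3% with hairpin 2 and 42.3% in control. With hairpin 1 the MT-ND2 site at 4919 did not pass (adjusted p = 0.117, exact binomial test). A share under the fitted rate was found at 2 of 9 sites with hairpin 1 (9.55% of its whole list), 1 of 11 with hairpin 2 (7.69%) and 6 of 8 in control (7.72%). Among sites of 100 or more reads it was found at 2 of 6 complex I sites with hairpin 1 (49.1% of all such sites), 1 of 7 with hairpin 2 (47.3%) and 6 of 8 in control (42.2%). Only deep sites can fall under the rate, because 1 changed read is the least that a site in these lists has.

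No complex I site passed the test of a difference in C-to-T share between any pair of lists. With hairpin 1 against control, 0 of 4 sites with single-valued reads passed the adjusted threshold of 0.05 and 0 had an unadjusted p under 0.05. Over all 198 shared sites the percentages were 0.00% and 4.55% (Fisher's exact test). With hairpin 2 against control, 0 of 4 passed and 0 had an unadjusted p under 0.05, beside 1.38% and 7.37% of 217 sites. Between hairpin 1 and hairpin 2, 0 of 3 passed and 0 had an unadjusted p under 0.05, beside 0.00% and 2.94% of 102 sites. At the MT-ND2, MT-ND3 and MT-ND4 sites, the odds ratio of hairpin 1 over hairpin 2 was 0.906 (0.394 to 2.01), 1.39 (0.294 to 8.71) and 1.21 (0.622 to 2.32). These intervals are wide enough to hold a 2-fold difference either way at the MT-ND2 and MT-ND3 sites. Summed over the 3 sites, the share was 2.60% with hairpin 1, 2.46% with hairpin 2 and 2.83% to 2.85% in control. The tests compare reads of pooled lists and not the conditions.

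Complex I sites held 9.36% of the summed score of the list with hairpin 1, 5.29% with hairpin 2 and 6.57% in control. As a part of the chromosome M score this was 33.8% with hairpin 1, 31.9% with hairpin 2 and 33.2% in control, a range of under 2 percentage points. The median score of complex I sites was 119 with hairpin 1, 158 with hairpin 2 and 935 in control, and that of nuclear sites was 10 with hairpin 1 and 14 with hairpin 2 and in control. Upstream of MT-ND1, where the ribosomal RNAs lie, 3 sites held 29.5% of the chromosome M score with hairpin 1, 6 held 48.4% with hairpin 2 and 6 held 45.0% in control. The nearest site outside the spans was at 14194, 45 nt past MT-ND5, with 791 reads and a share of 1.26% with hairpin 1. It was in neither of the other lists. Further past MT-ND5, a site at 14400 had 187 reads with hairpin 1, 181 with hairpin 2 and 1285 in control. Another at 14519 had 121 reads with hairpin 1 and 308 with hairpin 2. Whether sites past the span lie on the MT-ND5 mRNA was not tested.

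Of the 82 positions in all 3 lists outside chromosome Y, the 3 whose pair of log2 score ratios lay nearest to the medians of the 3 complex I positions in all lists (-3.07 with hairpin 1 and -2.63 with hairpin 2) were on nuclear chromosomes. They were chromosome 2 at 219508670 (minus strand; 10, 16 and 92 reads), chromosome 9 at 98055890 (plus strand; 7, 10 and 66 reads) and chromosome 1 at 26798974 (plus strand; 13, 14 and 91 reads), with hairpin 1, hairpin 2 and control in that order. Their Euclidean distances on the log2 scale were 0.16, 0.19 and 0.28 over 2 ratios, which is a likeness in score alone.

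Nuclear pseudogenes near the start of chromosome 1 resemble MT-ND1 and MT-ND2, and reads of these genes could be placed on either copy. How such reads were placed is not given in the sources used here, so MT-ND1 and MT-ND2 scores are uncertain to that extent. On the plus strand of chromosome 1 from 560000 to 580000, listed sites had unequal summed scores. These were 110 with hairpin 1 (6 sites), 1066 with hairpin 2 (4 sites) and 1136 in control (6 sites). Single sites held much of these sums: 919 reads at 566994 with hairpin 2 and 408 at 570153 in control. Which sites of this stretch lie in copies of MT-ND1 or MT-ND2 was not determined, so the sums are not those of the 2 genes. The part of the pseudogenes in the complex I values was not tested.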

How the data were processed

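The 9 HepG2 samples were labelled as 3 replicates for each of 3 shRNAs. Per the labels, mRNA was purified, sonicated and immunoprecipitated with an m6A antibody before stranded library preparation; the series title says miCLIP, but no crosslinking step is described. Without crosslinking, C-to-T reads may arise apart from m6A. Per the submitters' processing notes, FastQC 0.11.5, cutadapt 1.13, Bowtie 1.1.2 and hg19 were used. The site names carry the tool name rbsSeeker; which version, filters and pooling it used was not given in the sources used here.

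Per site, the deposited value is the authors' score, a whole number of at least 3 per site. For each list the background rate was searched from 0.2% to 4% until whole C-to-T read numbers existed that order all sites by the binomial probability, and the middle of the admissible range was used. The calculation was tested on simulated data ordered by that same probability, so what the score means remains an inference. Sites were shared at equal position and strand. C-to-T shares were tested between lists by Fisher's exact test (two-sided) and with one-sided exact binomial tests against the fitted rate, with Benjamini-Hochberg adjustment over all sites of each comparison (threshold 0.05). Running numbers reached 9187 for 482 sites with hairpin 1, 13154 for 697 with hairpin 2 and 73157 for 3755 in control. Most numbers thus have no listed site. The binomial adjustment covers listed sites only and takes no account of any that were left out. Intervals are 95% exact intervals (Clopper-Pearson for shares, conditional for odds and score ratios) and cover counting error only.

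The sites and tests were chosen with earlier results of these data known. Described in full were sites in 2 or 3 lists. Sequence around the sites was not analysed here. Alternatives changed the read bounds, rate, minimum score, matching distance, adjustment family and scaling. Python 3.11.15, numpy 2.4.6, scipy 1.17.1, pandas 2.3.3 and matplotlib 3.10.9 were used.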

Additional observations from a re-analysis of the deposited data

How the results depend on the processing

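No paired analysis was possible because each group's replicates share 1 pooled list. The summed score of shared complex I sites depended on scaling. Its log2 ratio to control was -2.97 with hairpin 1 and -2.66 with hairpin 2 unscaled. Divided by the median ratio of all shared sites, it was -0.16 and -0.36, and by that of other shared chromosome M sites -0.19 and 0.17. Divided by the ratio of summed nuclear scores, it was 0.64 and -0.40. Between hairpin 1 and hairpin 2 the log2 ratio was -0.29 unscaled, and 0.47, -0.029 and 1.06 under these scalings, so no direction of the complex I level between lists is independent of scaling. Sites at least 2-fold lower than control came to 6 with hairpin 1 and 5 with hairpin 2 unscaled, and to 0 and 1, 0 and 0, and 0 and 1 under the same scalings. Complex I sites above the fitted rate with hairpin 1 came to 0 instead of 1 among sites of 10 or more reads, where the MT-ND4 site at 11284 had an adjusted p of 0.0547 (exact binomial test), and to 2 with bounds at their lowest; control came to 3 instead of 1 with bounds at their lowest. With hairpin 2 the MT-ND2 site at 4616 did not pass among sites of 10 or more reads (adjusted p = 0.0637, exact binomial test). Dropping shallow sites leaves fewer tests and fewer small p-values for the adjustment. All 64 alternative values of the 11 site comparisons of C-to-T share kept their direction and side of the threshold, with adjusted p from 0.810 to 1 (Fisher's exact test). These alternatives could not have changed that. The read numbers of these sites are single-valued and stayed the same under every alternative. An adjusted p cannot lie under the unadjusted p, which was 0.330 or more at each of them (Fisher's exact test). The numbers of sites and of control sites listed again stayed within 1.5 times under the alternatives run.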
